A study of Homo sapiens with 2 samples.

Results

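The olfactory receptor genes of chromosome 11 were examined for binding of ETV4, as the protein-coding RefSeq genes of that chromosome whose symbol is OR followed by digits, letters and digits. The rule gave 171 genes. RefSeq places 168 of them on the chromosome itself, whereas OR8U8, OR8U9 and OR9G9 have positions on scaffolds outside it and could not be compared with the peaks. The 168 placed genes are part of 19880 protein-coding genes on the chromosomes, and 1129 other protein-coding genes of chromosome 11 served as the contrast. The chromatin came from A549 cells, an established human lung adenocarcinoma line, carrying an shRNA against ETV4 (A549-shETV4) and transfected with Flag-ETV4. DNA was recovered with an anti-Flag antibody in 1 sample, and 1 input library without antibody was the control. No library without Flag-ETV4 was analysed here, the protein was expressed from a plasmid, and there was no replicate, so no SD and no test between conditions can be given. The labels name a Sigma antibody and the paper's methods a CST antibody. The authors' list held 54389 peaks, of which 2926 lay on chromosome 11. Each peak has a fold enrichment, the fragments piled up at its summit over the level of the control there. The pileup, which was recovered from the deposited fold and p-value, had a median of 26 fragments and extremes of 6 and 7664. Transcription was not measured, so whether these receptors are silent in the cells was not tested.

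Olfactory receptors are G protein-coupled receptors on the cilia of olfactory sensory neurons. An odorant that binds one of them activates the G protein Golf and adenylyl cyclase, and the cyclic AMP formed opens a cation channel. Each sensory neuron expresses a single receptor gene, while the other receptor genes lie in compact chromatin that carries the repressive histone marks of heterochromatin. The genes stand in long tandem arrays, their coding sequence is a single exon, and class I receptors are distinguished from class II receptors by sequence. ETV4 is an ETS transcription factor of the PEA3 group that binds DNA with a GGAA core.

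A start window was defined as the 250 bases before and 50 bases after a RefSeq gene start. RefSeq gave such windows, with a strand, for 135 of the 168 genes. The 250 bases before the start are printed 5′ to 3′ on the strand of the gene from the GRCh38.p14 sequence, in lower case with GGAA, or TTCC where it lies on the other strand, in capitals. The former 4 sequences belong to the only receptor genes that had a peak within 1 kb of a RefSeq start. OR56A1 (chr11:6030759-6031008, minus strand) was the gene with a peak reaching into a start window, OR5AP2 (chr11:56642440-56642689, minus strand) and OR8B12 (chr11:124543655-124543904, minus strand) had a peak upstream of the start, and in OR8A1 (chr11:124569747-124569996, plus strand) the peak lay over the 3′ end of a short gene.
OR56A1: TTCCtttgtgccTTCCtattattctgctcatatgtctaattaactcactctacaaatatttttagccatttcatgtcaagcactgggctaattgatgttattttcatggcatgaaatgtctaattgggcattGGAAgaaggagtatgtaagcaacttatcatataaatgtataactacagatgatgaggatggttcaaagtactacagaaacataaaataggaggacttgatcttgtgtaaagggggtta
OR5AP2: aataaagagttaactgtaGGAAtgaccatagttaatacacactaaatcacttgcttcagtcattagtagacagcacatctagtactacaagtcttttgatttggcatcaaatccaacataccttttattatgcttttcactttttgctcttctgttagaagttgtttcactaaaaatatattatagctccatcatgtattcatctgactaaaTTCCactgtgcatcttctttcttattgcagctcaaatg
OR8B12: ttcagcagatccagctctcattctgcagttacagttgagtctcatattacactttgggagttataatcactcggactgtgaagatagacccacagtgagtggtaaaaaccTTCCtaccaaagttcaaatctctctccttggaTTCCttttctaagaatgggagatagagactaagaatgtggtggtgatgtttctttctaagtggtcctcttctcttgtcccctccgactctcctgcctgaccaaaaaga
OR8A1: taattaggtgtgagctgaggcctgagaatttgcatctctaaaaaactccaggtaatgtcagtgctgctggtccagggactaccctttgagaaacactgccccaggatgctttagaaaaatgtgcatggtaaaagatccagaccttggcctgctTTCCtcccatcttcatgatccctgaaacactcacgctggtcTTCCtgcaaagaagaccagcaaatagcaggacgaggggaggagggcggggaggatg
OR4C46 (chr11:54603999-54604248, minus strand) and OR10AG1 (chr11:55969946-55970195, minus strand) are shown because they were the receptor genes farthest from any peak.
OR4C46: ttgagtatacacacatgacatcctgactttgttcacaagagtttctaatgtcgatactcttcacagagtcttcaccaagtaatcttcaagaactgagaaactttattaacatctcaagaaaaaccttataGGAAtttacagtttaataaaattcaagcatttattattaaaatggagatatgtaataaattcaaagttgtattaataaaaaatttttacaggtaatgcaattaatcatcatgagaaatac
OR10AG1: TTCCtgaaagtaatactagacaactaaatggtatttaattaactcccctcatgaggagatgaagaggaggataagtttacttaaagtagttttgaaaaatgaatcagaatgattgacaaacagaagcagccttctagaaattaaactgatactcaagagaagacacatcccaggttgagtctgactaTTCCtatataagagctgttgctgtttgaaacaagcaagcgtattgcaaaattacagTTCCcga
For contrast, TRIM68 (chr11:4608232-4608481, minus strand) is a non-receptor gene that stands inside a receptor cluster, chosen after its value was seen, and ACAD8 (chr11:134253318-134253567, plus strand) shares with THYN1 the start windows under the strongest peak over any start window of the chromosome, with a fold of 101.
TRIM68: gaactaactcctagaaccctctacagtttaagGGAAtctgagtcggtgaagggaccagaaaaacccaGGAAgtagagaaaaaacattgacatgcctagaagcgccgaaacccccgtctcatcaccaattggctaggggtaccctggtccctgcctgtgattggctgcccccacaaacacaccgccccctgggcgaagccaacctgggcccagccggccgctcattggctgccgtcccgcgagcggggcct
ACAD8: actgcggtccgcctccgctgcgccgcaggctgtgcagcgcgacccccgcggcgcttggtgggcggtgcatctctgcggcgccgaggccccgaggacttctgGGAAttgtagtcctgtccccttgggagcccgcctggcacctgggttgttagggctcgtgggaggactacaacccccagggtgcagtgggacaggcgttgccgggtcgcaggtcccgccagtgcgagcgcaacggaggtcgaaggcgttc
The 6 receptor sequences held 1 to 3 matches to GGAA on either strand. None of the 8 sequences held CCGGAA. The receptor sequences had 0 to 3 CpG dinucleotides and a GC content of 27.2% for OR4C46 to 50% for OR8A1, whereas TRIM68 had 12 and 58.8% and ACAD8 had 26 and 70.4%.

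ETV4 binding peaks were rare at the olfactory receptor genes. A peak stood within 1 kb of an end in 6 of the 168 genes (3.57%, Wilson 95% confidence interval 1.65% to 7.57%). The same held for 715 of the other 1129 protein-coding genes of chromosome 11 (63.3%, 60.5% to 66.1%), and over all protein-coding genes the share was 62.5%. The intervals cover counting error only, and they treat genes as independent although neighbours in a cluster can share a peak. With a fold enrichment over 5 required, 5 receptor genes remained beside 59.0% of the other genes of the chromosome and 57.9% of all protein-coding genes. A fold over 10 left 2 receptor genes (1.19%), OR8A1 and OR10S1, beside 45.2% and 45.5%. The 6 peaks had a median fold enrichment of 7.33, against 16.3 for the strongest peak at each of the 715 other genes. When only RefSeq starts were counted, 4 of 135 receptor genes had a peak within 1 kb (2.96%), against 68.7% of the other genes of the chromosome with a start and 64.4% over all protein-coding genes with one.

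**Figure D1:**
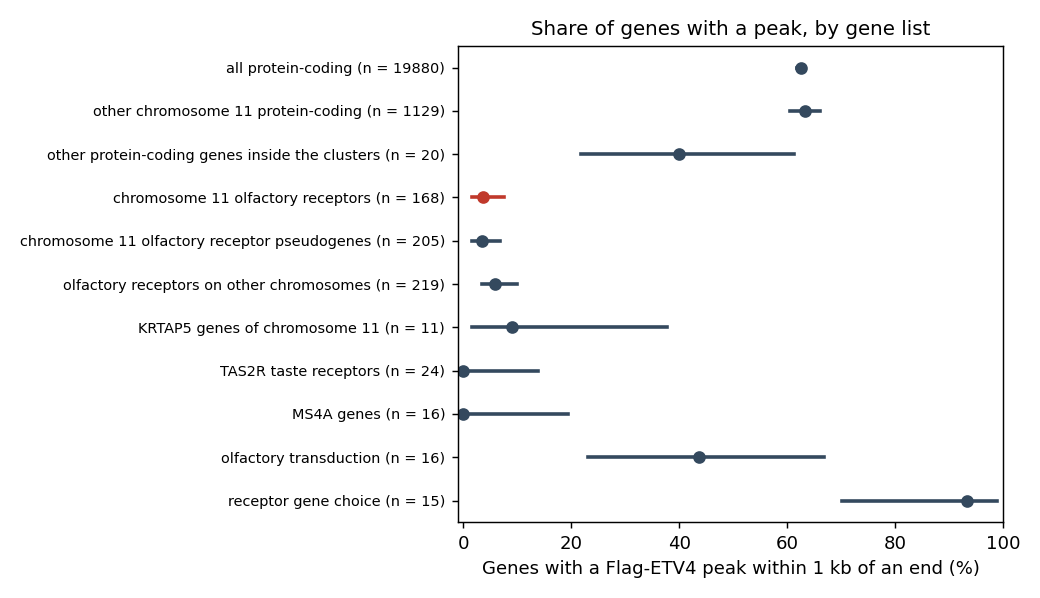
Share of genes with an ETV4 binding peak within 1 kb of an end (percent, x axis) for each gene list (y axis, with the number of genes). Points are shares and lines Wilson 95% confidence intervals. The receptor genes of chromosome 11 stand at 3.57%, the other protein-coding genes of the chromosome at 63.3%.

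OR8A1 had the strongest of the 6 peaks. The gene lies at chr11:124569997-124571374 on the plus strand, and the peak at chr11:124570879-124571412 covered its 3′ end, with the summit 192 bp inside that end. Its fold of 22.3 exceeded that of 77.5% of all peaks, and 54 fragments piled up (95% interval of a Poisson count, exact, 40.6 to 70.5) over a control level of 1.47 and a −log10 q of 61.7. The peak also came within 882 bp of the start, since the gene is 1378 bp long. It was the only receptor gene with an end inside a peak.

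OR10S1 (chr11:123976661-123977781) contained its whole peak, chr11:123977249-123977724, which ended 57 bp short of the higher-coordinate end of the gene. The fold enrichment was 11.2 and the pileup 27 fragments (17.8 to 39.3). A second peak, at chr11:123973870-123974268 with a fold of 11.6, lay 2393 bp beyond the other end. Both were somewhat above the median fold of the whole list, 9.63. The strand of OR10S1 was not used here.

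The remaining 4 peaks were weaker. OR5AP2 (chr11:56641489-56642439, minus strand) had a peak 696 bp upstream of its 5′ end, with a fold of 8.51 and a pileup of 19 fragments (11.4 to 29.7). OR8B12 (chr11:124542722-124543654, minus strand) had a peak 675 bp upstream, with a fold of 6.14 and 14 fragments (7.65 to 23.5). In neither gene did the peak reach the sequence printed above. OR8D1 (chr11:124302831-124313949) had a peak 586 bp inside its higher-coordinate end, with a fold of 5.33 and 12 fragments (6.20 to 21.0). OR4D9 (chr11:59511539-59520703, plus strand) had a peak 832 bp beyond its 3′ end, with a fold of 4.80 and 20 fragments (12.2 to 30.9) over a control level of 3.38, the highest of the 6. OR4D9 was the member just inside the 1 kb limit, and OR6Q1 just outside it, with a peak of fold 3.94 at 1509 bp from its 5′ end. The next nearest were OR2AT4, 2522 bp from a peak of fold 20.2, and OR6A2, in whose body a peak of fold 6.57 lay 3062 bp from the 5′ end.

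The position along the gene varied among the 6. By strand, 2 of the peaks were nearest to a 5′ end, 2 to a 3′ end, and for 2 genes the strand was not used here. All 6 were class II receptors, of the families OR4, OR5, OR8 and OR10, and OR8 held 3 of them among its 22 genes. None of the 55 class I receptors, the families OR51, OR52 and OR56, came within 1 kb of a peak, which allows a share of up to 5.45%, against 6 of the 113 class II receptors (5.31%, 2.46% to 11.1%). The limit for class I lies inside the interval for class II, and no test was run between the classes. All 55 class I genes stand in 1 cluster, so class and cluster cannot be told apart here.

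When the whole gene and 1 kb on each side were counted, 11 receptor genes had a peak (6.55%), against 74.9% of the other genes of the chromosome and 74.7% of all protein-coding genes. The 5 added ones, OR56A1, OR56A3, OR52I2, OR6A2 and OR9Q1, are longer gene models in which the peak lay away from the outer ends. RefSeq lists an inner start for OR56A1, and the edge of the peak at chr11:6030328-6030719 was 39 bp downstream of that start, with a fold of 7.44 and 16 fragments (9.15 to 26.0). It reached only into the transcribed part of the window, so none of the OR56A1 bases printed above lay in the peak. OR9Q1, whose outer limits span 158 kb, contains 2 other receptor genes. One of its 3 peaks, at chr11:58034466-58035127, was 2.56 kb from OR6Q1 and had a fold of 51.2 and a pileup of 116 fragments.

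Distance gave the same picture without a window. The receptor genes lay a median of 80.1 kb from the nearest peak (95% interval of the median 58.7 kb to 109 kb, n = 168), with a quartile range of 26.3 to 259 kb. The interval of the median treats genes as independent and is too narrow, since many neighbours share the same nearest peak. For the other protein-coding genes of the chromosome the median was 0 kb, since 565 of the 1129 had a gene end inside a peak, and the upper quartile was 4.63 kb. Over 100 kb from any peak were 74 receptor genes (44.0%) and 31 of the other genes (2.75%). The 3 farthest receptor genes were OR4C46 at 707 kb, OR10AG1 at 655 kb and OR5F1 at 649 kb. The peak nearest to OR4C46 and OR10AG1 was a weak one with a fold of 3.94 and 8 fragments.

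**Figure D2:**
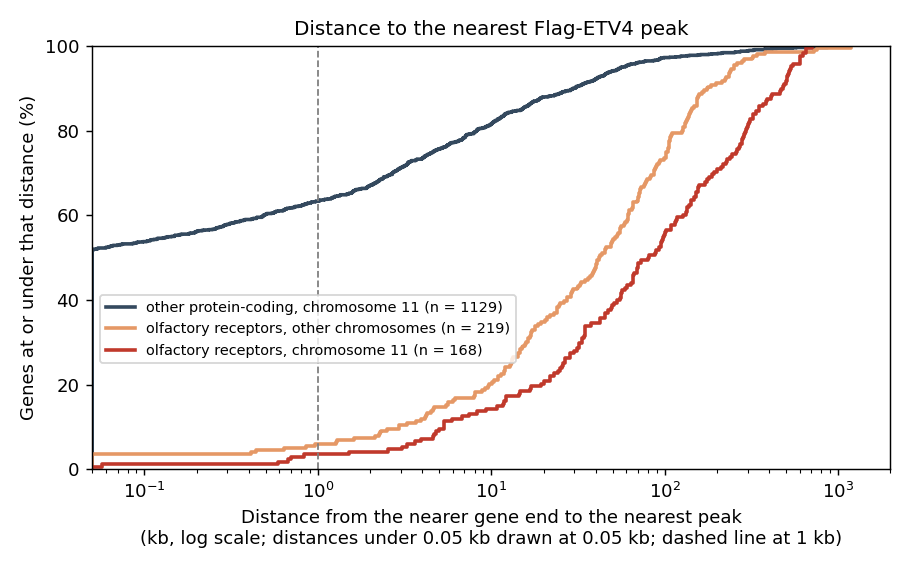
Cumulative percentage of genes (y axis) by distance from the nearer gene end to the nearest ETV4 binding peak (x axis, kb, log scale) for 3 groups of genes. The curve of the chromosome 11 receptor genes lies to the right of the others, with a median of 80.1 kb against 42.0 kb for receptor genes on other chromosomes.

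Clusters were defined as runs of at least 5 receptor genes with neighbours at most 500 kb apart. There were 7 clusters with 159 of the genes, and the other 9 genes stood in 4 smaller runs, none of which held a peak. The clusters spanned 5.57 Mb and held 48 peaks, or 8.62 per Mb (exact Poisson 95% confidence interval 6.36 to 11.4). Outside them, chromosome 11 held 2878 peaks in 129 Mb, or 22.2 per Mb (21.4 to 23.1). The peaks inside differed less in height than in number. Their median fold enrichment was 8.10 and their median pileup 20 fragments, against 9.09 and 23 fragments outside, and 41.7% of them had a fold over 10, against 45.7%. The median control level was 1.37 inside and 1.35 outside. The lowest control level of the list was 1.28, a floor below which the input cannot be read. It was found at 20 of the 48 peaks and at 29.0% of all peaks of the list.

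The clusters were unlike each other. The OR4A16 to OR5AK2 cluster (chr11:55343201-56989843), with 46 receptor genes, held 2 peaks in 1.65 Mb, or 1.21 per Mb (0.147 to 4.39). The 500 kb on each side of it held 36.0 per Mb (25.2 to 49.8), but unevenly. On the lower-coordinate side the only peak was chr11:55310970-55311222, with a fold of 3.94 and 8 fragments. The other flanking peaks were all on the higher-coordinate side. Most of the cluster belonged to a stretch of 1.33 Mb without any peak, chr11:55311223-56643134. The stretch contained 42 receptor genes, 25% of all those placed, and 1 other protein-coding gene. OR5AP2 is the last gene in that stretch, and the peak upstream of it ends the stretch. The OR4B1 to OR4A47 cluster (chr11:48216810-48489722), with 7 receptor genes, held no peak in 0.273 Mb, with an exact Poisson interval of 0 to 13.5 per Mb. Stretches of more than 500 kb without a peak numbered 20 on the chromosome. They contained 73 of the 168 receptor genes (43.5%) and 39 of the 1129 others (3.45%). The longest, of 5.05 Mb, contained OR4C46 and OR4A5, and it also takes in the centromere and the longest part of the chromosome without any RefSeq gene, 4.17 Mb.

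The largest cluster, OR52B4 to OR52W1 (chr11:4367263-6200186), contains all 55 class I receptors. It held 15 peaks, or 8.18 per Mb (4.58 to 13.5), against 38 per Mb (26.9 to 52.2) beside it. Its receptor genes lay 3.62 to 311 kb from a peak. The beta globin genes and several TRIM genes, which encode ubiquitin ligases, stand in this cluster too, and the strongest peak there, with a fold of 31.3 and 85 fragments (67.9 to 105), was at TRIM68, 12.7 kb from the nearest receptor gene, OR52I1. The OR9Q1 to OR5B21 cluster (chr11:58023881-58508105) held 4 peaks, or 8.26 per Mb (2.25 to 21.2), and the OR2AG2 to OR2D3 cluster (chr11:6765626-6921994) 3 peaks, or 19.2 per Mb (3.96 to 56.1), all under a fold of 6.6.

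The OR6X1 to OR8A1 cluster (chr11:123753580-124571374), with 22 receptor genes, held 13 peaks, or 15.9 per Mb (8.46 to 27.2), an interval that includes the density outside the clusters, although 52.0 per Mb (38.8 to 68.2) were found beside it. It also held 4 of the 6 receptor genes with a peak within 1 kb. Without it, 2 of 146 receptor genes had one (1.37%), and the density inside the clusters was 7.37 per Mb. The OR5AN1 to OR10V1 cluster (chr11:59358895-59713845), with 8 receptor genes, held 11 peaks, or 31.0 per Mb (15.5 to 55.5), against 17.0 per Mb (9.90 to 27.2) beside it. Of these 11 peaks, 3 were at ends of OSBP, an oxysterol-binding protein, and PATL1, a factor of mRNA decay, 4 others at ends of lncRNA or tRNA genes, and 1, that of OR4D9, at a receptor gene. The control level at the 11 summits ranged from 1.28 to 3.38, and the part of the input in this density was not tested. Without this cluster, the others held 37 peaks in 5.21 Mb.

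**Figure D3:**
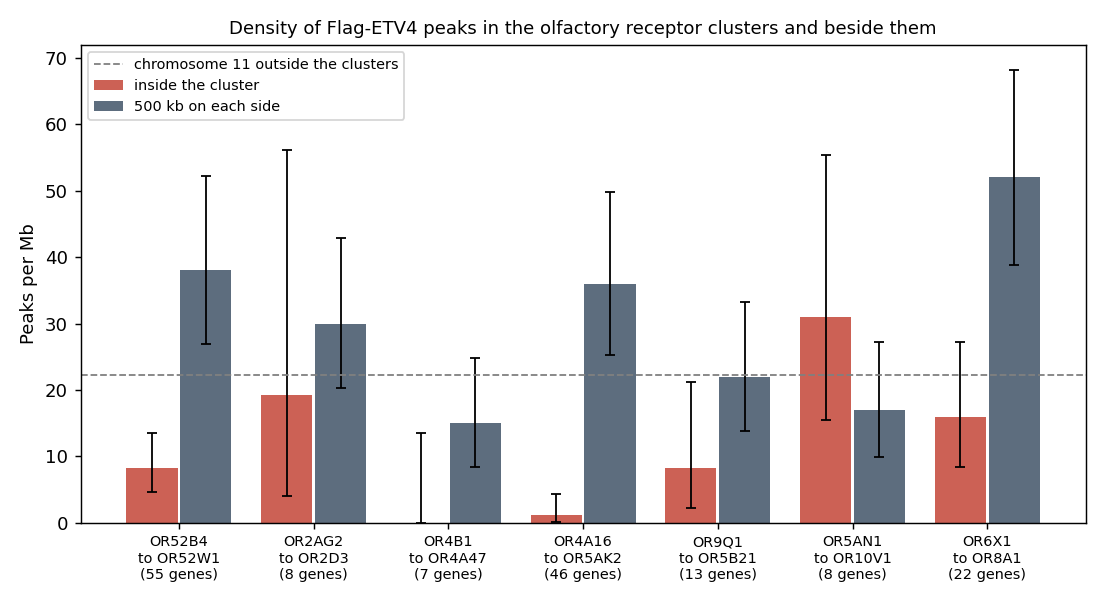
ETV4 binding peaks per Mb (y axis) inside each of the 7 olfactory receptor clusters (red) and in the 500 kb on each side (grey), named by their first and last gene. Bars are counts per Mb, lines exact Poisson 95% confidence intervals, and the dashed line is the density outside the clusters, 22.2 per Mb. The cluster of 46 genes held 1.21 peaks per Mb and the OR5AN1 to OR10V1 cluster 31.0. Beside the cluster of 46 genes, nearly all peaks were on the higher-coordinate side.

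Of the 48 peaks inside the clusters, 6 were within 1 kb of a receptor gene end, 8 within 1 kb of an end of another protein-coding gene, 7 within 1 kb of an end of a gene of another type, and 27 farther than 1 kb from any RefSeq gene end. Each peak was counted once, with other protein-coding genes taken first, receptor genes next and other types last. No peak was within 1 kb of both a receptor gene end and another protein-coding gene end. A peak at OSBP and the peak at PATL1 also lay over start windows of the lncRNA genes LOC101927226 and PATL1-DT. The 7 are therefore not all the peaks at genes of another type. Gene ends here are the outer limits of a gene, so the 27 include the OR56A1 peak that lies 39 bp from an inner start. The 20 other protein-coding genes inside the clusters included 8 with such a peak (40%, 21.9% to 61.3%). Among them were TRIM68, OSBP with a fold of 16.4 and a summit 19 bp from a RefSeq start, VWA5A with 8.42, TRIM6 and the read-through gene TRIM6-TRIM34 with 7.88 and a summit 1 bp from their start, PATL1 with 7.43 and a summit 13 bp from its start, and TRIM21 with 3.70. Of the 5 beta globin genes, HBD had a peak at 853 bp, with a fold of 6.13 and 13 fragments (6.92 to 22.2). HBB, HBG1, HBG2 and HBE1 were 8.27 to 32.6 kb from that same peak.

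The strongest peaks of the clusters were away from gene ends. The highest fold, 128, belonged to a peak at chr11:59690338-59691109 with 292 fragments over the lowest control level. It lay 21.8 kb from OR10V1, 21.3 kb from PATL1 and 14.3 kb from PATL1-DT, the nearest gene of any type. The next were a peak of fold 55.6 in the body of VWA5A (chr11:124136235-124136996, 126 fragments, 46.3 kb from OR10D3), the peak of fold 51.2 in OR9Q1, a peak of fold 47.4 at 5.34 kb from OR10G6 (chr11:124000498-124001186, 111 fragments), and the peak at TRIM68. All but the last were in the class without a gene end within 1 kb, whose fold enrichment had a median of 7.44 and a range of 3.94 to 128. The peaks within 1 kb of a receptor gene end ranged from 4.80 to 22.3.

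**Figure D4:**
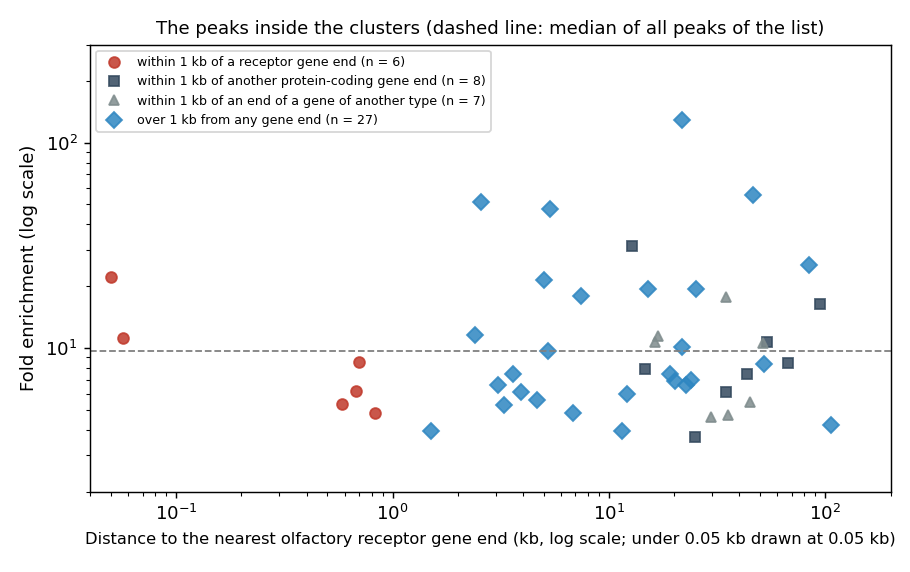
Fold enrichment (y axis, log scale) of the 48 peaks inside the clusters by distance to the nearest olfactory receptor gene end (x axis, kb, log scale), with symbols for the kind of gene end within 1 kb. The dashed line is the median of all peaks, 9.63. The 6 peaks at receptor gene ends reach a fold of 22.3 at most, and the highest peak, of fold 128, is over 1 kb from any gene end.

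The start windows of the receptor genes were poor in CpG and GC. The ratio of observed to expected CpG had a median of 0.113 in the 135 receptor windows and 0.788 in the windows of 818 other protein-coding genes of the chromosome. The median GC content was 37% and 62%, and 36 receptor windows (26.7%) had no CpG at all, against 18 of the 818 others. Receptor genes on other chromosomes were alike, with a median ratio of 0.129 and a median GC content of 38.3% (n = 177). Peaks at the non-receptor genes of chromosome 11 went with CpG content. Under a ratio of 0.3, 38 of 174 other genes were so marked (21.8%, 16.3% to 28.5%), from 0.3 to 0.6 it was 54.9%, and at 0.6 or more 85.5%. Of the receptor genes, 124 had a ratio under 0.3 and 4 of these had a peak (3.23%, 1.26% to 8%). The intervals of receptor and other genes did not overlap within this class either. The 11 receptor genes with a higher ratio, OR52N2 and OR5D18 at 0.6 or more among them, had no peak. CpG content, GC content, gene length and the type of gene differ together here, and their part in the result was not tested. For 89 of the 168 genes the RefSeq model was shorter than 1200 bp, close to a bare coding sequence, so the transcription start of such a gene may lie upstream of its window.

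**Figure D5:**
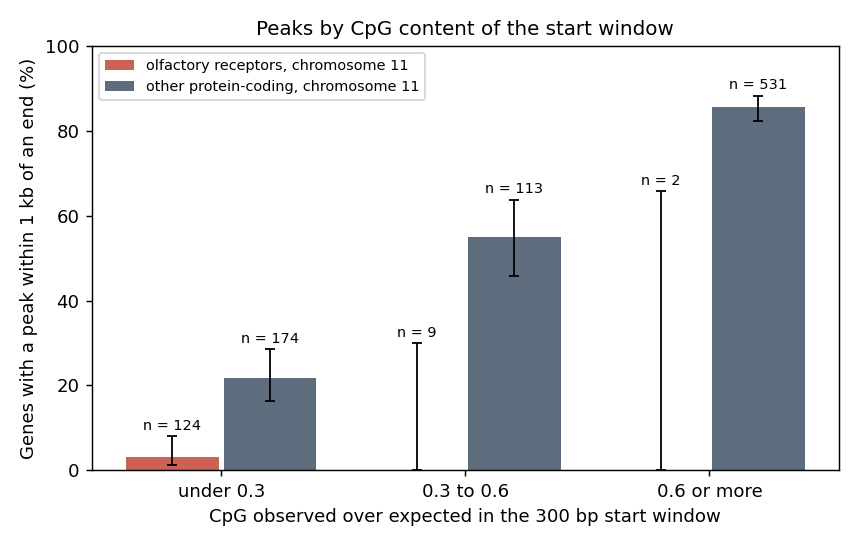
Percentage of genes with an ETV4 binding peak within 1 kb of an end (y axis) by the ratio of observed to expected CpG in the start window (x axis), for receptor genes (red) and other protein-coding genes (grey) of chromosome 11. Lines are Wilson 95% confidence intervals and n the number of genes. Under 0.3 the shares were 3.23% and 21.8%.

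The GGAA core was in nearly every window of any kind, so its presence could not set the receptor windows apart. A longer ETS site was rarer in them. On either strand, GGAA was found in 98.5% of the receptor windows, 94.5% of the windows of other genes of the chromosome and 95.2% of all protein-coding windows. CCGGAA, which contains the GGAA core and a CpG, was found in 1 receptor window, that of OR5D18 (0.741%, 0.131% to 4.08%), against 27.0% on the rest of the chromosome (24.1% to 30.2%) and 22.7% of all windows. OR5D18 was 508 kb from a peak. TGAGTCA, a site of the AP-1 factors, was found in 2.96% of the receptor windows and 3.67% of the others. TAATTA, a site of LHX2 and other homeodomain factors, was found in 24.4% against 3.18%. TATAAA, a core promoter element, was found in 35.6% against 9.17%. The EBF site, which reads TCCC, any 2 bases and GGGA, was found in 1.48% against 1.71%. In the 177 windows of receptor genes on other chromosomes, CCGGAA was found in 0%, TAATTA in 21.5% and TATAAA in 34.5%. The scarcity of CCGGAA and the frequency of the other 2 were thus not particular to chromosome 11. Such matches describe the letters of a window, and the AT-rich motifs were the ones more frequent in the AT-rich receptor windows.

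Other receptor families and non-coding relatives showed how far the scarcity extended. A peak was as near to 7 of 205 olfactory receptor pseudogenes of chromosome 11 (3.41%, 1.66% to 6.88%). Among 219 olfactory receptor genes on other chromosomes, 13 had one (5.94%, 3.5% to 9.89%), an interval that overlaps that of chromosome 11. None of 24 TAS2R bitter taste receptor genes had one, which allows a share of up to 12.5%, and none of 16 MS4A genes, which encode membrane proteins of immune and other cells, which allows up to 18.8%. Of 11 KRTAP5 genes on chromosome 11, which encode keratin-associated proteins of hair, KRTAP5-6 had a peak.

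The genes that act with the receptors were marked more often than the receptor genes themselves. Of 16 genes of olfactory signal transduction, 7 met the 1 kb limit (43.8%, 23.1% to 66.8%), beside 62.5% of all protein-coding genes. The highest folds were 59.0 at ADCY3, the adenylyl cyclase of olfactory cilia, 43.0 at RIC8B, a chaperone and exchange factor of Golf, 28.6 at GNAL, the alpha subunit of Golf, 15.4 at GNB1, a widely expressed G protein beta subunit, and 10.5 at CNGA4, a subunit of the olfactory cation channel that is itself on chromosome 11. ANO2, a chloride channel, had a fold of 8.12 and REEP1 5.58. No peak lay within 1 kb of CNGA2, CNGB1, OMP, the olfactory marker protein, RTP1 or RTP2, which carry receptors to the cell surface, or of GNG13, PDE1C, SLC24A4 and STOML3. Of 15 genes that govern receptor gene choice in the nose, 14 had a peak (93.3%, 70.2% to 98.8%). Over all protein-coding genes the share was 62.5%, and 81.6% where the CpG ratio of the start window was 0.6 or more. The part of CpG content in the share of these lists was not tested. The folds were 38.1 at EBF4, 35.5 at EMX2, 34.2 at EBF1, 29.4 at ATF5, 22.7 at LBR, 20.8 at EIF2AK3, 14.7 at EHMT1, 12.4 at LHX2, 10.9 at LDB1 and 10.1 at EBF2, and 3.61 to 8.51 at EBF3, EHMT2, SETDB1 and KDM1A. CBX5, a heterochromatin protein, had its nearest peak at 13.6 kb. Many of these are regulators used in many tissues. Peaks at either end of a gene count in both lists, so a fold need not belong to a start. The summit was 83 bp from the nearest RefSeq start at LHX2, but 1370 bp at EBF1, 4222 bp at CNGA4 and 5773 bp at LDB1.

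Receptor genes that resemble each other closely can share reads, and how reads with several matching places were treated is not given in the sources used here. A gene without a peak is therefore a gene at which none was called in this 1 library.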

How the data were processed

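The data were 1 anti-Flag ChIP-seq sample and 1 input of the A549-shETV4 line after transfection of Flag-ETV4. The authors deposited a narrowPeak list on hg38, with the fold enrichment as a ratio and the −log10 p-value and −log10 q-value at each summit, down to a −log10 q of 1.30. The deposited display score was not used. The submitters' processing notes name Bowtie2 2.4.1, SAMtools, MACS2 2.2.7.1 and deepTools 3.5.0. Parameters and the handling of duplicates are not given in the sources used here. Peaks were called on the single library against the input.

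Gene ends came from RefSeq (GRCh38.p14), start windows and strands from its promoter sequences. Positions are 1-based. The gap between a peak interval and the nearer gene end was computed for 19880 protein-coding genes. The pileup was solved from the fold, taken as pileup plus 1 over control plus 1, and the Poisson p-value, and 100% of the peaks gave a whole number within 0.05. The total depth is unknown from a peak list, and the lowest 5% of peaks had at most 9 fragments. Peaks count inside a cluster where they overlap it, and densities outside run from the first to the last gene end of the chromosome. Shares have Wilson and counts exact Poisson 95% confidence intervals, and the limit given with a share of 0 is 3 counts. No test was run, as there was 1 sample.

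The members and gene lists were chosen with earlier results of these data known. Genes named are members with a peak within 1 kb, the 3 next nearest and 3 farthest, other protein-coding genes with a peak inside the clusters, the 5 strongest peaks there, listed genes with a fold over 10 and the beta globins. Other genes were named after their values were seen. The functions were tested on simulated data. Alternatives covered windows, thresholds, summits, cluster gaps and left-out clusters. Python 3.11.15 was used, with scipy 1.17.1, numpy 2.4.6, matplotlib 3.10.9 and pandas 2.3.3.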

Additional observations from a re-analysis of the deposited data

How the results depend on the processing

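The share of receptor genes with a peak stayed between 0.595% and 8.93% over 12 alternatives, and that of the other genes of the chromosome between 45.2% and 75.6% over 9. For the receptor genes, 4 alternatives fell outside the main interval: 0.595% where the peak had to touch the gene end, 8.93% in a window of 5 kb, 1.19% at a fold over 10, and 1.37% without the OR6X1 to OR8A1 cluster, an alternative chosen after seeing the data. For the other genes these were 50.04% where the peak had to touch the end, 67.1% in 2 kb, 75.6% in 5 kb, 68.7% at RefSeq starts, 74.9% over the whole gene, 59.1% by summit, 59.0% at a fold over 5, 45.2% at a fold over 10 and 54.7% at a −log10 q of at least 10. Inside the clusters, the density was 11.7 per Mb with gaps up to 1 Mb, which joined other genes into the clusters, 3.59 at a fold over 10 and 5.21 at the q threshold. Outside, it was 17.9 at a fold over 5, 10.2 at a fold over 10, 14.2 at the q threshold and 16.9 without peaks at protein-coding genes. A stricter threshold removes peaks by its construction. The median distance stayed between 80.4 and 95.1 kb in 3 alternatives. A fold over 10 was not among these 3, and with it the median was 210 kb, outside the main interval of 58.7 to 109 kb. Peaks of few fragments are missed at this depth, so a weak peak at a receptor gene cannot be told apart from none. No paired analysis was possible because each group had 1 sample and the result comes from no test, and for the same reason no sample could be left out.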
